A study of Mus musculus with 3 samples.

Results

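In ATAC-seq peak lists from mouse islets, 8 genes were followed whose products tune how much insulin a beta cell releases. They are Glp1r, Gipr, Gcgr, Ffar1, Chrm3, Adra2a, Prlr and Ucn3. The genes were chosen by name, as 8 of the 22359 protein-coding genes with a promoter window, and every peak that overlapped their gene bodies or the 50 kb on each side was taken. Positions and sequences are those of mm9, and distances run from the gene's annotated start along its strand. These loci held 89 of the 60898 WT peaks, 62 of the 150354 peaks at 1 week and 85 of the 151725 peaks at 5 weeks. All members but Ucn3 encode receptors, whereas Ucn3 encodes a secreted peptide, so the set is not made of receptors alone.

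ATAC-seq reads out open chromatin from the sites that a transposase reaches. It was performed on cells dissociated from islets of Langerhans of mice labelled as strain C5LBl6, to ask how the loss of Taf4, which belongs to the transcription factor complex TFIID, changes accessibility. There were 3 libraries, 1 per group. The WT group has the genotype wild type. The Taf4 KO groups were studied 1 week and 5 weeks after floxed Taf4 alleles had been inactivated with tamoxifen through Ins1::Cre-ERT2, a Cre recombinase driven by the insulin promoter of beta cells. Per the study, control animals also carried the Cre transgene and received tamoxifen. The other cells of the islet are not targeted by this driver. How many animals stand behind a library was not given in the sources used here. No library was replicated, so no p-value was computed and each difference described is one between libraries. In such mixed cells, a changed share of a cell type and a changed accessibility per cell cannot be told apart.

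Glucose is the main trigger of insulin release, and most of these genes set how strongly a beta cell answers to it. Glp1r, Gipr and Gcgr are receptors for peptide hormones and couple to Gs, which raises cyclic AMP and amplifies secretion. Ffar1, for long-chain fatty acids, and Chrm3, for acetylcholine, couple to Gq and mobilise calcium through phospholipase C. Adra2a, for adrenaline and noradrenaline, couples to Gi and restrains secretion. Prlr, a cytokine receptor for prolactin and placental lactogens, signals through Jak2 and Stat5 and is known for the growth of beta cells in pregnancy. Ucn3 is released with insulin by mature mouse beta cells and acts through delta cells to limit secretion.

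Fold is the pileup of reads over the local background. The −log10 of the caller's adjusted p-value against that background is called the q score here. Both are averaged over a peak and belong to their own list. Peaks were therefore also ranked, a percentile being the rank of a q score from the lowest up, ties averaged, as a share of the peaks of its list. The lists were not alike. The background depth recovered from the caller's values was 1.76 times the WT value at 1 week and 2.57 times at 5 weeks, and the median q score was 3.71, 2.08 and 2.38 for WT, 1 week and 5 weeks. The Taf4 KO lists held many weak peaks, and a promoter peak of median rank stood at the 82.7, 86.6 and 88.1 percentiles of the respective lists. The rank among promoter peaks alone is given beside the rank in the whole list. At 1 week the calls also followed the GC content of the surrounding 1 Mb. Of 5 equal groups of genes, 2.12% of WT promoter calls were absent at 1 week in the least GC-rich and 29.4% in the most GC-rich. Markers of islet cells were open in each list, with 6 of 6 beta cell markers called in WT and 5 in both Taf4 KO lists. Slc2a2 was the one not called there. Its WT peak was weak, with a q score of 2.15, at the 6.23 percentile of promoter peaks. Most lists of markers of other cells had more calls at 5 weeks than in WT. Of 4 endothelial markers 1, 2 and 3 were called in the order WT, 1 week, 5 weeks, of 4 stellate and fibroblast markers 0, 0 and 3, of 6 acinar markers 0, 0 and 1, of 4 duct markers 2, 2 and 3 and of 4 immune markers 0, 1 and 0. Among other endocrine markers, 4, 5 and 5 of 5 alpha cell genes and 1, 2 and 3 of 3 delta cell genes were called. The part of depth, GC content and cell mixture in the values below was not tested.

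Of the 8 promoters, 7, 6 and 7 carried a peak in the WT, 1 week and 5 week lists, against 59%, 55.9% and 65.6% of all protein-coding genes. A promoter peak is one that overlaps the stretch from 1000 bp upstream to 100 bp downstream of an annotated start. Gcgr was the 1 of 7 genes whose WT call was absent at 1 week, beside 14.5% of all genes, and none of the 7 calls was absent at 5 weeks, beside 1.89%. The gene without a WT call, Chrm3, gained none at either time, beside 13.3% and 18.9% of the genes without a WT call. Its annotated start is treated separately below, since the GENCODE model does not hold the upstream start. The count of losses among the members is thus near that background.

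**Figure D1:**
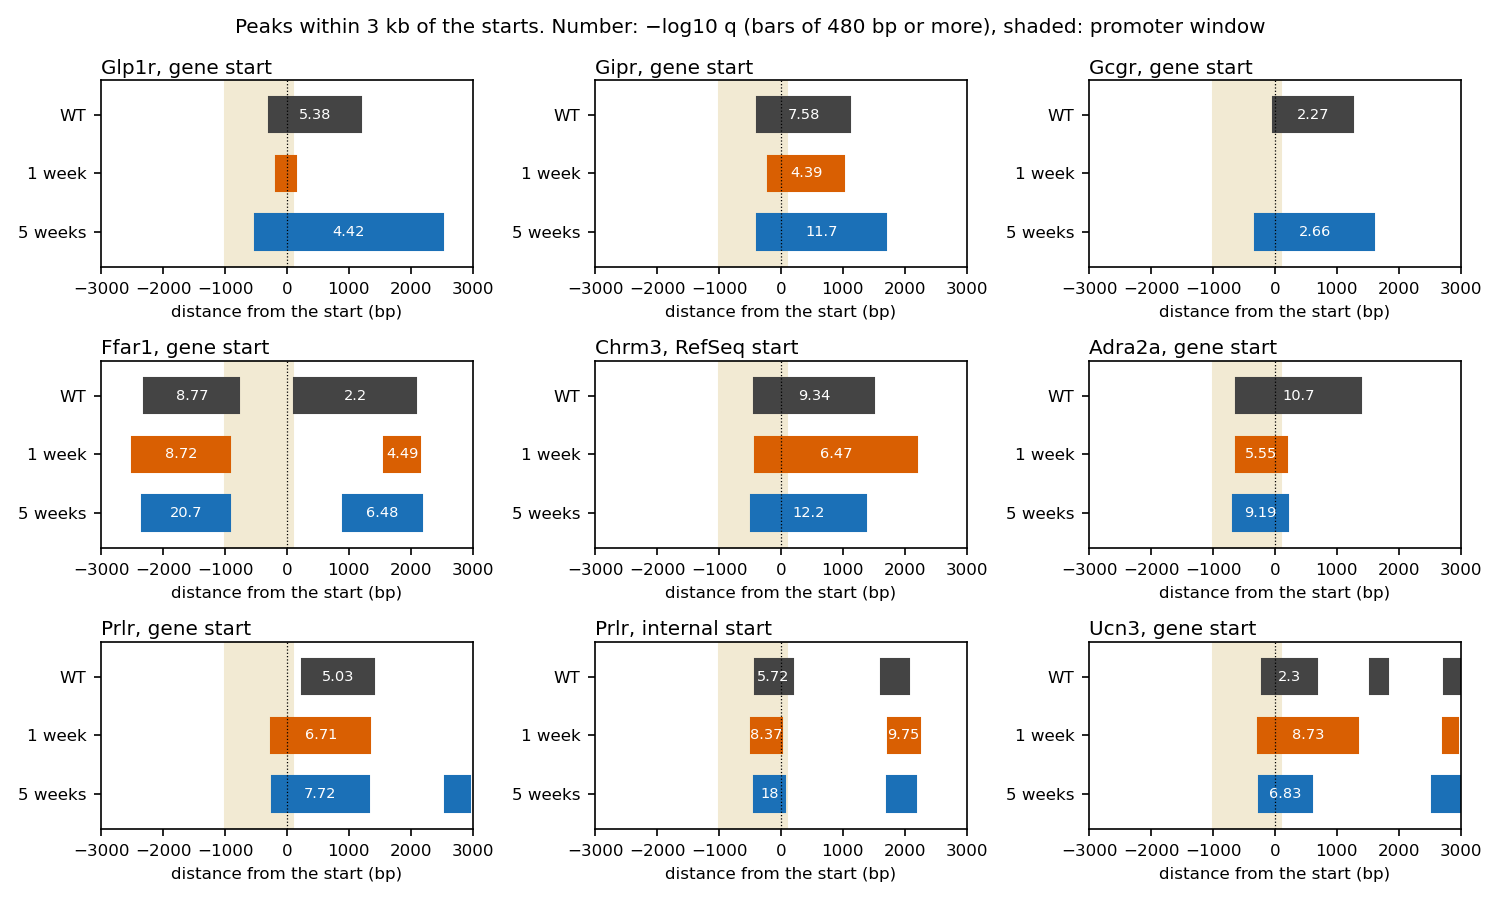
Peaks within 3 kb of the starts, drawn by distance from the start along the gene's own strand, with 1 row per list; the number in a wide bar is its q score and the shaded area is the promoter window. Gcgr has no bar at 1 week, the Ffar1 peaks lie at the upstream edge of the window, and the WT peak at the Prlr gene start begins downstream of it.

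Among the Gs-coupled receptors, Glp1r kept an accessible promoter throughout. Glp1r encodes the receptor of the incretin GLP-1 and lies on the plus strand of chromosome 17 from 31038785 to 31073455 (ENSMUSG00000024027). The WT peak ran from 31038502 to 31039982 with a fold of 2.66 and a q score of 5.38. At 1 week it was narrow, 329 bp from 31038608 to 31038936, with a fold of 3.71 and a q score of 7.11. At 5 weeks it was 3024 bp wide, from 31038276 to 31041299, with a fold of 2.11 and a q score of 4.42. All 3 peaks covered the start and differed mainly in how far they ran into the gene. Among promoter peaks they ranked at the 23.7, 60.2 and 18.7 percentiles. The narrowest of the 3 peaks ranked highest and the widest lowest. The part of width in the ranks was not tested. The 200 bases upstream of the start, at chr17:31038585-31038784 on the plus strand of mm9, lie largely within all 3 peaks and are shown because they form the shared open stretch. They hold 76.5% GC and 24 CpG, against a mean of 55.3% GC over all such windows. None of the 6 motifs searched was found in them.
Glp1r promoter: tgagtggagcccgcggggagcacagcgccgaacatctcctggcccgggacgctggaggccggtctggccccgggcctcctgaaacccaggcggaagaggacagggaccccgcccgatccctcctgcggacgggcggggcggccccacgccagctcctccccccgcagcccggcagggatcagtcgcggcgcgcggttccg

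With peaks of every q score counted, Glp1r had the largest difference in peak number of the members. The locus held 17 WT peaks, then 5 and 13 at 1 and 5 weeks. With a q score of at least 3 the 1 week difference was larger at Gcgr. Under that filter Glp1r had more peaks than WT at 5 weeks. Of the 19 regions made by merging the lists, 5 were found in all lists, 5 in WT and at 5 weeks, 7 in WT alone and 2 at 5 weeks alone. The regions kept in every list included the strongest ones. The peak at -24237 bp from the start, from 31014175 to 31014922, had q scores of 14.6, 5.54 and 19.3 in the order WT, 1 week, 5 weeks. A second one at -13777 bp, from 31024636 to 31025381, had 7.18, 8.46 and 12.4. Inside the gene, an intronic peak toward its end, from 31069950 to 31070159 in WT, stood at the 38.4, 45.9 and 87.4 percentiles. The 7 WT peaks without a Taf4 KO counterpart were weak, with percentiles from 1.83 to 25.5. They lay in introns of Glp1r (3 peaks), at or in the neighbouring genes Umodl1 (3 peaks) and Dnahc8 (1 peak). The strongest distal peak is shown by 250 bases around the centre of the stretch common to the 3 lists, at chr17:31014564-31014813 on the plus strand. Capitals mark a homeodomain core, TAATTA, and Maf cores, TGCTGA, on either strand.
Glp1r distal: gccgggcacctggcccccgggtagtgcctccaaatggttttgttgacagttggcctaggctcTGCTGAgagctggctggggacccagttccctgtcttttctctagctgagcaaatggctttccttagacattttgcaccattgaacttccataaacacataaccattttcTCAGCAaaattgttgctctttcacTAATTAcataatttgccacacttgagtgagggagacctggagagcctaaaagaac

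Gipr, encoding the receptor of the incretin GIP, differed little between the lists in position. It spans, on chromosome 7 and the minus strand, 19742474 to 19751476 (ENSMUSG00000030406). The promoter peak ran from 19750352 to 19751863 in WT with a q score of 7.58, from 19750456 to 19751679 at 1 week with 4.39, and from 19749771 to 19751856 at 5 weeks with 11.7. Fold was 3.57, 3.06 and 3.68, and the rank among promoter peaks was 33.9, 37.1 and 49.7. The gene had 10, 7 and 9 peaks at its locus. A peak near its 3′ end, 2262 bp wide in WT from 19742754 to 19745015, was 592 bp at 1 week and 691 bp at 5 weeks, with a q score of 13.8, 7.04 and 23.0. An upstream peak from 19757237 to 19758559 in WT was called in all lists with 5.31, 4.46 and 13.4. The 3 WT peaks of the locus found in neither Taf4 KO list lay at the 37.5, 13.8 and 36.8 percentiles. The strongest peaks of the locus belong to promoters of the neighbours Fbxo46, Qpctl and Snrpd2, and these were called in every list.

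Gcgr, the glucagon receptor gene, was the member whose promoter call was absent at 1 week. It lies on the plus strand of chromosome 11 from 120392013 to 120400402 (ENSMUSG00000025127). The WT peak from 120391975 to 120393282 was weak, with a fold of 2.52 and a q score of 2.27, which put it at the 29.1 percentile of the list and the 7.20 percentile of promoter peaks. At 1 week the nearest peak to the first start lay 8639 bp away. At 5 weeks the peak was 120391689 to 120393621, its fold 2.25 and its q score 2.66, at the 10.8 percentile of promoter peaks. With a q score of at least 3 none of the lists had a call, and the 5 week call was also absent once the lists were trimmed to equal number or scaled to the WT background. With 50.8% GC around it, Gcgr is in the most GC-rich group of genes, where 29.4% of WT promoter calls were absent at 1 week.

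The whole Gcgr locus followed the same course, with 10, 3 and 10 peaks. Of its 11 regions, 3 were in all lists and 6 in WT and at 5 weeks only. A region found in WT and at 5 weeks lay at -14863 bp from 120376889 to 120377412, with a q score of 9.12 and 11.4. The promoter of Mrpl12, a mitochondrial ribosomal protein gene, at the upstream end of the locus, showed the same pattern with 17.9 and 16.5, so strong calls were absent at 1 week too. A peak from 120399923 to 120401405 in WT, across the 3′ end of Gcgr, was present throughout, with 16.0, 8.28 and 18.1. At 1 week it was 284 bp wide and lay past the gene's end, against 1483 bp in WT and 1744 bp at 5 weeks. The 250 bases around the centre of the common stretch, at chr11:120400668-120400917 on the plus strand, are shown as the part of the locus that stayed called. Capitals mark a forkhead motif, TGTTTAC, read on the other strand, and an AP-1 motif, TGANTCA.
Gcgr downstream: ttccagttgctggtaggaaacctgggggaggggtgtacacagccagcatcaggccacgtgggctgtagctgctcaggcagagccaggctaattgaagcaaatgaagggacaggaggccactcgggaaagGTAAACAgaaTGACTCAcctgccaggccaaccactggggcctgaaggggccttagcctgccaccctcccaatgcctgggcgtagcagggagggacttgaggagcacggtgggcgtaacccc

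Of the Gq-coupled receptors, Ffar1 had its peak upstream of the start rather than over it. The annotated model, 903 bp long and on the minus strand, covers chromosome 7 between 31645587 and 31646489 (ENSMUSG00000044453) with 1 start. The peak ran from 31647255 to 31648793 in WT, from 31647408 to 31648986 at 1 week and from 31647401 to 31648830 at 5 weeks, so that only its edge met the promoter window. Fold was 2.95, 3.77 and 3.58. The q score was 8.77, 8.72 and 20.7, and the rank among promoter peaks was 39.6, 70.7 and 81.1. The Ffar1 peak thus ranked higher among promoter peaks in both Taf4 KO lists than in WT, at almost the same position and width. Rescored at the WT background depth, its −log10 p was 11.2, 6.96 and 9.98, below WT in both Taf4 KO lists. Another peak over the coding region in WT, from 31644406 to 31646370, did not reach the start. It was called further downstream at 1 week, from 31644344 to 31644915, and at 5 weeks, from 31644309 to 31645587.

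The Ffar1 locus held 8 peaks in WT, 7 at 1 week and 10 at 5 weeks. In all, 6 of its 11 regions were in all lists and 1 was in WT alone, at the 2.65 percentile. The peak at -27115 bp from the start, from 31673059 to 31674150 in WT, had a q score of 8.10, 7.08 and 27.9, and at 5 weeks it stood at the 98.8 percentile. The peak in Cd22, which encodes a surface receptor of B cells, from 31657957 to 31658774, had 9.29, 8.43 and 15.9. Ffar2, a receptor for short-chain fatty acids in the same cluster, had a weak promoter peak in WT, with a q score of 1.76 and none at 1 week. Its strongest promoter peak at 5 weeks had 11.6.

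Chrm3, the muscarinic M3 receptor gene, was called only when its upstream start was used. The GENCODE model on chromosome 13, minus strand, from 9876381 to 9878329 (ENSMUSG00000046159), spans 1949 bp, and no list had a promoter peak there. The start in RefSeq, whose GRCm38.p6 promoter sequence had 1 exact match on mm9, lies at 10360049, 481720 bp from the GENCODE start and outside the 50 kb taken. A peak covered it in all 3 lists. It ran from 10358549 to 10360486 in WT with a fold of 3.33 and a q score of 9.34, from 10357848 to 10360472 at 1 week with 2.94 and 6.47, and from 10358679 to 10360534 at 5 weeks with 3.37 and 12.2. The rank among promoter peaks was 42.3, 55.8 and 51.8. With this start, chosen after the data were seen, the 3 lists called 8, 7 and 8 members. The 200 bases upstream of it, at chr13:10360050-10360249 on the minus strand, are shown because they place the start that the annotation of the files' build does not hold.
Chrm3 RefSeq promoter: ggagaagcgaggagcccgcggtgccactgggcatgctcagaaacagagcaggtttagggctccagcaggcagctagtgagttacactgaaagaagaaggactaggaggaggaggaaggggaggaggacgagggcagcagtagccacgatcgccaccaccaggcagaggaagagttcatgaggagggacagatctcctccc

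Around the coding exon of Chrm3, peaks were few and mostly kept, with 6, 8 and 6 in the 3 lists. In the GENCODE annotation all of them lie between genes, and those upstream of its start lie between that start and the RefSeq one. Of 9 regions 4 were in all lists. The strongest, at -28306 bp from 9906448 to 9906822, had a q score of 16.3, 7.94 and 13.3. The nearest to the GENCODE start, at -3434 bp from 9881650 to 9881877, had 4.12, 7.77 and 12.2, at the 53.8, 91.4 and 88.7 percentiles. A region from 9833519 to 9833793 at 1 week was found in both Taf4 KO lists and not in WT, with 4.56 and 11.6. The single WT region without a Taf4 KO peak stood at the 4.19 percentile. The centre of the strongest region, at chr13:9906490-9906739 on the minus strand, holds an E box, CAGATG, and a Maf core.
Chrm3 distal: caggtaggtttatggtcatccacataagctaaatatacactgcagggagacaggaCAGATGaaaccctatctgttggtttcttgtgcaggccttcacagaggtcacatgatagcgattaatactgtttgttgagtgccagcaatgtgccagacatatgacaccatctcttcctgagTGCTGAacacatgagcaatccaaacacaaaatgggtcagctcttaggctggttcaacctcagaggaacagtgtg

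Adra2a, the main inhibitory adrenergic receptor of beta cells, had a promoter peak with nearly the same upstream edge in all lists. That peak reached less far into the gene in the Taf4 KO lists. The gene lies on the plus strand of chromosome 19 from 54119672 to 54123472 (ENSMUSG00000033717). The WT peak spanned 2016 bp from 54119047 to 54121062. At 1 week the peak began at the same base and ended at 54119860, and at 5 weeks it ran from 54118996 to 54119880. Widths were 814 and 885 bp in the Taf4 KO lists. The median width of all promoter peaks was 985 bp in WT, 858 bp at 1 week and 1050 bp at 5 weeks. The q score was 10.7, 5.55 and 9.19 and fold was 2.83, 3.02 and 2.59. Adra2a was the member whose promoter rank was lower than in WT in both Taf4 KO lists, at the 48.9, 48.1 and 38.6 percentiles among promoter peaks, a small step at 1 week. A second peak over the exon, from 54122739 to 54123325 in WT, was called in all lists with 8.34, 6.44 and 9.91.

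The Adra2a locus held 9, 6 and 10 peaks. Of 12 regions 5 were in all lists. A peak at -10194 bp from 54109020 to 54109937 in WT, with 5.65, was not called at 1 week and had 4.34 at 5 weeks. Conversely, a region from 54151414 to 54151793 at 5 weeks, downstream of the gene, was absent in WT and had 1.78 at 1 week and 8.29 at 5 weeks. The 2 regions in WT alone stood at the 39.5 and 16.8 percentiles.

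Prlr had the largest locus and the most regions common to all lists. The gene lies on the plus strand of chromosome 15 from 10106993 to 10303504 (ENSMUSG00000005268), with 5 starts of protein-coding transcripts, of which 3 had a promoter peak in every list and 2, at 10145710 and 10179315, in none. At the first, 10107410, the WT peak from 10107235 to 10108401 covered that start but began downstream of the gene's 5′ end at 10106993. In the Taf4 KO lists it began upstream, at 10106739 and 10106744, and ended at 10108342 and 10108321. The q score was 5.03, 6.71 and 7.72. The −log10 p rescored at the WT background depth was 7.27, 5.70 and 4.62, below WT in both Taf4 KO lists. The 200 bases upstream of the 5′ end, at chr15:10106793-10106992 on the plus strand, are shown because both Taf4 KO peaks cover them and the WT peak does not. Capitals mark a Maf core.
Prlr promoter: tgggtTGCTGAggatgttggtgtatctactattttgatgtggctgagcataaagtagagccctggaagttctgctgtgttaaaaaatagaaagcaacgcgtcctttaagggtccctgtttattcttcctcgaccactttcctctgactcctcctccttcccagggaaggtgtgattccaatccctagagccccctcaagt

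The other Prlr promoters also ranked higher in the Taf4 KO lists. The peak at the start at 10153741 ran from 10153315 to 10153931 in WT, from 10153263 to 10153758 at 1 week and from 10153310 to 10153811 at 5 weeks. Fold was 3.20, 3.68 and 4.29, the q score 5.72, 8.37 and 18.0, and the rank among promoter peaks 25.3, 68.6 and 73.4. At the last start, at 10243857, a weaker peak had a q score of 2.91, 2.77 and 4.37 and a rank of 11.0, 19.2 and 18.5. Ranks thus differed most from WT at the middle start, where fold was higher too. At that start the −log10 p rescored at the WT background depth was 7.99, 6.80 and 8.94. At the last start it was 5.04, 3.24 and 3.18. Prlr belongs to the least GC-rich group of genes, at 40.3% GC, in which 74.7% of promoter peaks ranked higher at 1 week than in WT and 69.2% at 5 weeks.

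Within and around Prlr, 14 of 29 regions were found in all lists. The locus held 21, 17 and 20 peaks, of which 11, 7 and 10 lay mainly in its introns. The strongest, from 10351168 to 10351728 beyond the gene, had a q score of 22.4, 18.7 and 30.6. Among intronic regions the order of the lists differed. The region from 10209799 to 10210386 had q scores of 14.9, 5.64 and 12.1. The one from 10184569 to 10185035 had 8.86, 14.1 and 20.1, and the one from 10196924 to 10197285 had 4.49, 12.5 and 11.8. A region in the neighbour Agxt2, from 10330265 to 10330558, had 5.66, 16.2 and 21.6. The 7 regions in WT alone were weak, from the 0.921 to the 31.1 percentile. Of these, 6 lay inside Prlr and 1 in Agxt2.

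Ucn3, the urocortin gene of mature beta cells, had the largest difference in promoter rank between 1 week and WT among the members. It spans, on chromosome 13 and the minus strand, 3939934 to 3944595 (ENSMUSG00000044988). The WT peak from 3943914 to 3944806 was weak, with a fold of 2.43 and a q score of 2.30. At 1 week a wider peak from 3943249 to 3944861 had 3.62 and 8.73, and at 5 weeks a peak from 3944002 to 3944857 had 2.85 and 6.83. The rank in the whole list was 30.0, 92.9 and 78.1, and among promoter peaks 7.43, 70.7 and 28.3. The higher rank at 1 week therefore also stood among promoter peaks, whereas the difference at 5 weeks was smaller on that scale. Rescored at the WT background depth, −log10 p was 4.36, 6.99 and 4.23, above WT at 1 week only. The surroundings of Ucn3 hold 40.9% GC, and in its GC group 60.3% of promoter peaks ranked higher at 1 week and 61.1% at 5 weeks. The 200 bases upstream of the start, at chr13:3944596-3944795 on the minus strand, are shown since all 3 peaks cover them. They hold 48% GC and 1 CpG, and capitals mark an E box.
Ucn3 promoter: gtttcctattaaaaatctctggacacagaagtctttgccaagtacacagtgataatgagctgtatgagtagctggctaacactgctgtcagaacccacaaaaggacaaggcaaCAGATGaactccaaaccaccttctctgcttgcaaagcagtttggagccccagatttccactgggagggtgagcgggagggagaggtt

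Other peaks of the Ucn3 locus moved in their own ways. The locus held 8, 9 and 7 peaks, and 6 of 11 regions were in all lists. The intronic peak from 3941509 to 3941871 in WT had a q score of 4.22, 3.79 and 14.7. A second intronic peak, from 3942766 to 3943051 with 2.07, was in WT alone. The peak downstream of the gene from 3936429 to 3936778 had 2.92, 1.47 and 11.7. The strongest distal peak, at -37065 bp from 3981365 to 3981956, had q scores of 15.4, 6.91 and 12.0. Among peaks at no promoter it stood at the 96.5, 92.4 and 92.5 percentiles of its list. The promoters of Net1, the neighbouring gene, were called in all lists.

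**Figure D2:**
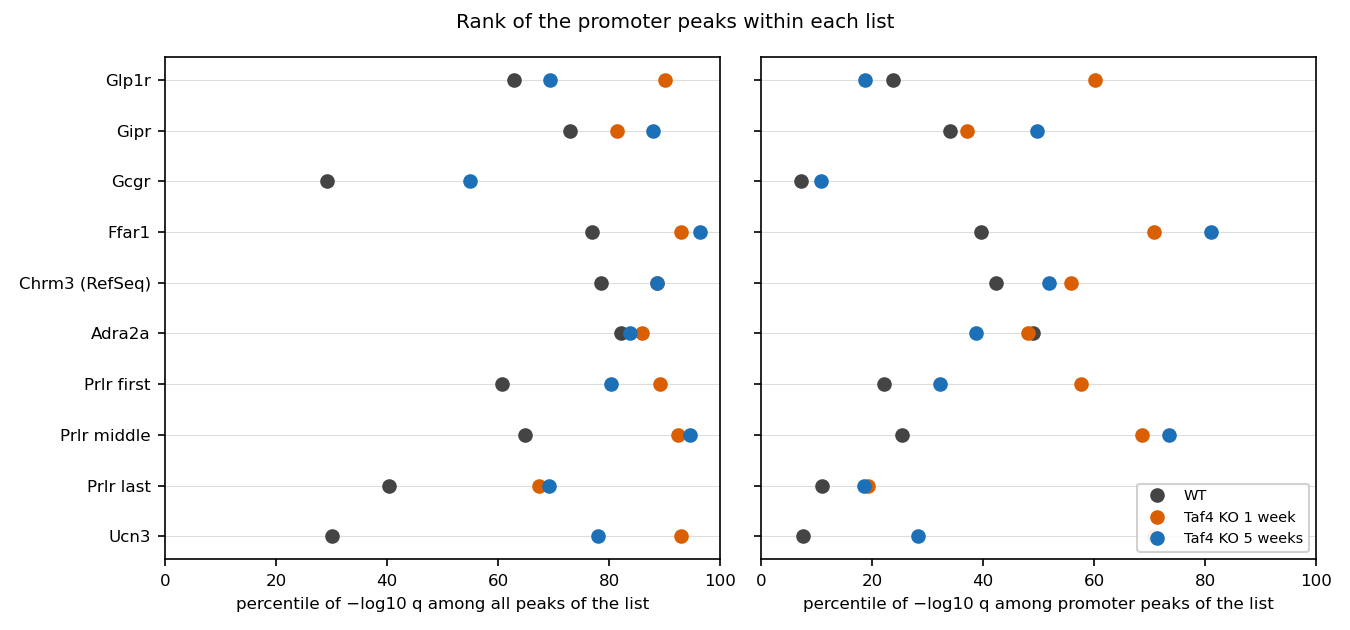
Percentile of the q score of each promoter peak among all peaks of its list (left) and among the promoter peaks of its list (right), with 1 dot per library; Chrm3 is at its RefSeq start and Prlr at 3 starts. On the left all Taf4 KO dots lie to the right of WT, and on the right the Adra2a and the 5 week Glp1r dots do not.

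Counted by the strongest promoter peak of each gene, the rank among promoter peaks was higher than in WT for 5 of 6 members called in both lists at 1 week, beside 50.4% of all genes, and for 5 of 7 at 5 weeks, beside 61.3%. At 1 week the share over all genes ran from 74.7% in the least GC-rich to 34.2% in the most GC-rich group. Glp1r, Gipr and Ffar1 lie in the 2 most GC-rich groups and ranked higher at 1 week, where 42.2% and 34.2% of genes did. With 8 genes, no more than these counts can be given.

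**Figure D3:**
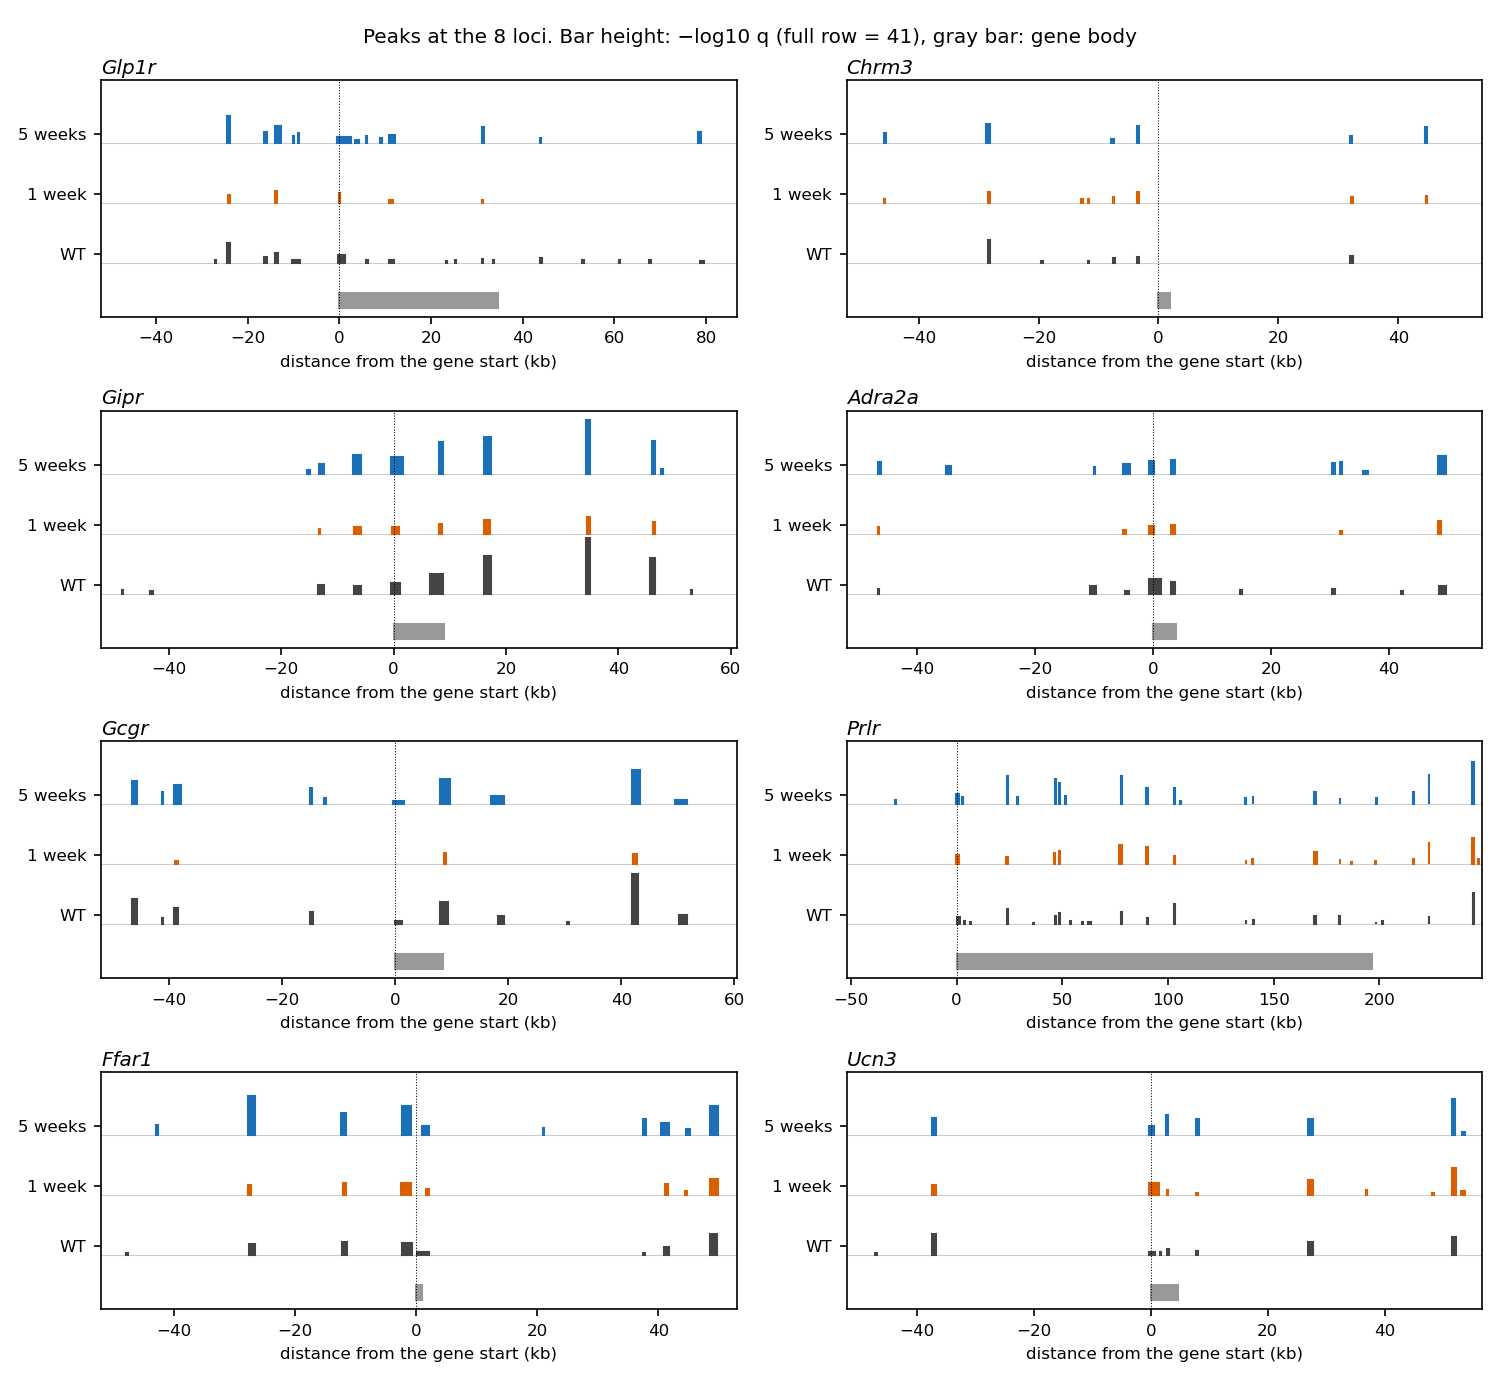
Peaks at the 8 loci by distance from the gene start in kb along the gene's strand, 1 row per list, with bar height showing the q score and the gray bar the gene body. Rows for 1 week are sparse at Glp1r and Gcgr, while most bars at Prlr, Gipr and Ucn3 stand in all 3 rows.

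Over the 8 loci together, 6 had fewer peaks at 1 week than in WT, beside 50.4% of all protein-coding genes, and 2, Chrm3 and Ucn3, had more, beside 37.4%. At 5 weeks 4 had fewer, beside 16.9%, and 2, Ffar1 and Adra2a, had more, beside 64.2%. The sum of peaks was 0.697 times WT at 1 week and 0.955 times at 5 weeks. Summed over the loci of all genes it was 1.23 and 1.57 times. Each member locus held 6 to 21 WT peaks, against a median of 5 and quartiles of 2 and 8 over all genes. The part of this WT number in the shares and ratios was not tested. The difference from WT at 1 week, -27 peaks, was -3 when a q score of at least 3 was asked for. At 5 weeks the direction turned, from -4 to 28. Most of the difference at 1 week thus lay among peaks under that score, a fixed score for lists of unlike background depth. How the members stood beside all genes depended on the filter. At that score 4 loci had fewer peaks and 4 more at 1 week, beside 40% and 29.4% of all genes. At 5 weeks 0 had fewer and 7 more, beside 3.98% and 69.3%. With that score the ratio was 0.94 for the members and 0.900 for all genes at 1 week, and 1.56 and 1.48 at 5 weeks. With a q score of at least 5 it was 0.825 and 0.756 at 1 week, and 1.55 and 1.56 at 5 weeks. In lists of equal number it was 0.596 and 0.701 at 1 week, and 0.854 and 0.935 at 5 weeks.

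**Figure D4:**
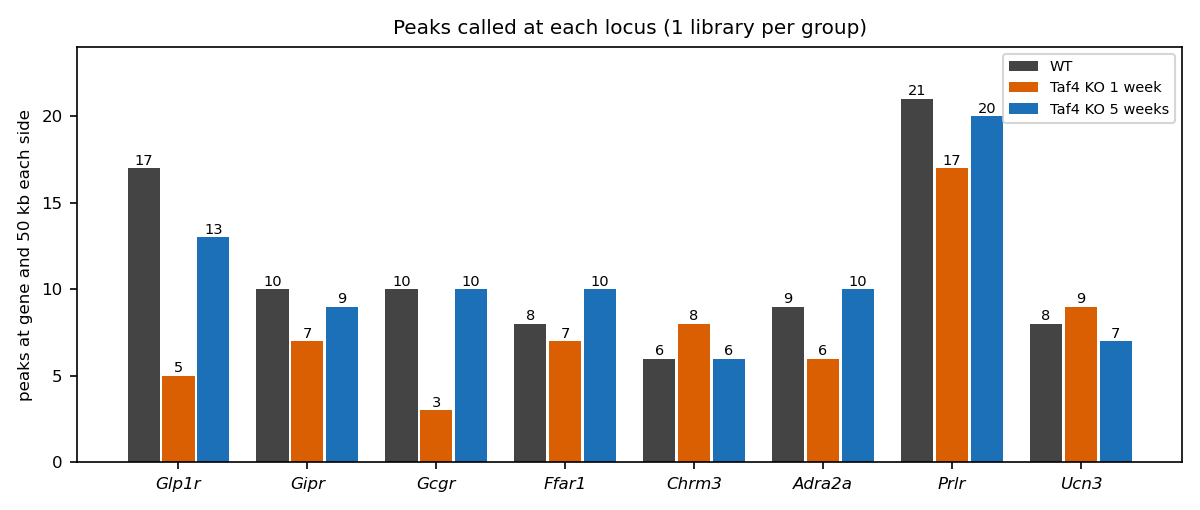
Number of peaks overlapping each gene and the 50 kb on each side in the 3 lists, 1 library per bar. Glp1r falls from 17 to 5 and Gcgr from 10 to 3 at 1 week, while the counts of Chrm3 and Ucn3 are higher at 1 week than in WT.

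The surroundings of the genes differ in GC content, with which peak counts at 1 week moved over the genome. In the least GC-rich group 3.55% of genes had fewer peaks at 1 week and in the most GC-rich group 94.1%. Gipr, Gcgr and Ffar1 lie in the most GC-rich group and had fewer peaks. Prlr, in the least GC-rich group, also had fewer, at 17 against 21 at 1 week. At 5 weeks it had 20 against 21, where 4.27% of genes in its group had fewer. With a q score of at least 3, Prlr had more peaks than WT at both times. Glp1r, in the second most GC-rich group, where the interquartile range of the difference at 1 week ran from -4 to -1, differed by -12. With a q score of at least 3 the difference at Glp1r was smaller.

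**Figure D5:**
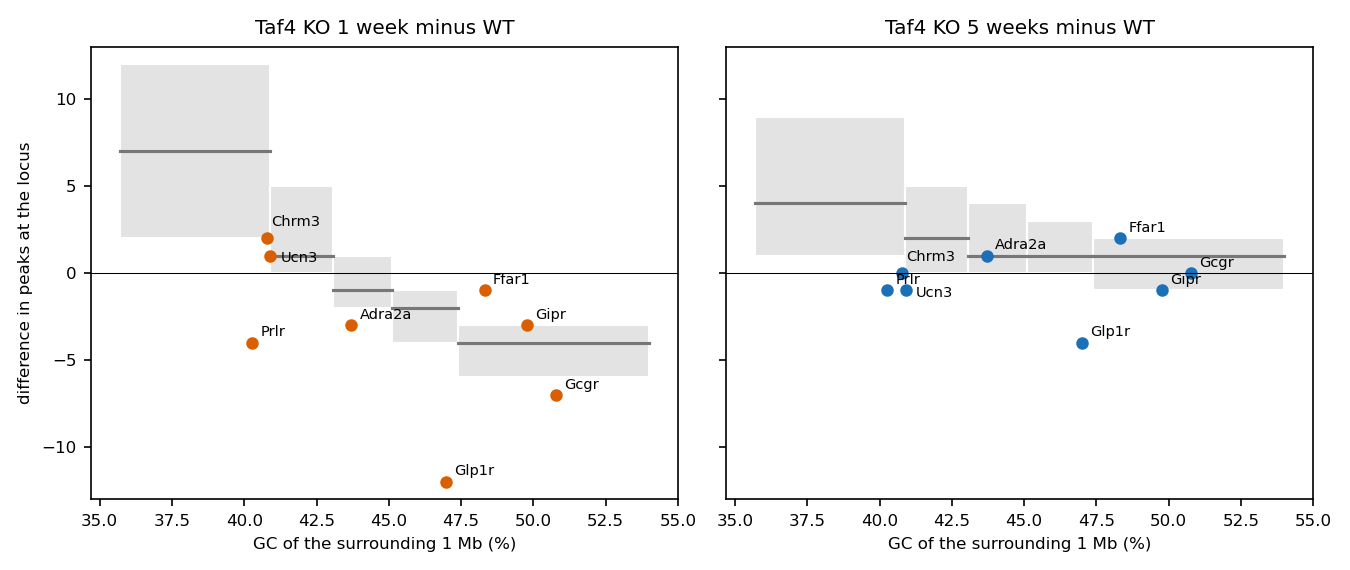
Difference in peaks at the locus from WT against the GC content of the surrounding 1 Mb, at 1 week (left) and 5 weeks (right). Dots are the 8 genes, and gray boxes with lines give the interquartile range and the median of all genes in 5 GC groups. With peaks of every q score counted, Glp1r and Prlr lie below their boxes in both panels. Gcgr and Adra2a lie below at 1 week only, Chrm3 and Ucn3 at 5 weeks only, and Ffar1 lies above at 1 week.

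WT peaks of the members were found again more often where they were strong. The 67 WT peaks at no promoter are set beside all WT peaks outside promoters. Of the 67, 35 were overlapped at 1 week, or 52.2% (Wilson 95% interval 40.5 to 63.7), beside 55.5%, and 43 at 5 weeks, or 64.2% (52.2 to 74.6), beside 74.6%. Of the 33 with a q score of at least 3, 28 were overlapped at 1 week, or 84.8% (69.1 to 93.3), beside 77.7%, and 33 at 5 weeks, or 100% (89.6 to 100), beside 94.1%. Of the 34 weaker ones, 7 were overlapped at 1 week, or 20.6% (10.3 to 36.8), beside 33%, and 10 at 5 weeks, or 29.4% (16.8 to 46.2), beside 54.9%. Strong peaks of the loci could be absent at 1 week too. Of the 13 WT peaks at promoters of neighbouring genes, 8 were overlapped at 1 week and 12 at 5 weeks, and the Mrpl12 promoter, with a q score of 17.9 in WT, was among those absent at 1 week. The intervals cover the counting of peaks only.

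Merged over the lists, the loci held 114 regions. Of these, 50 were in all 3 lists, or 43.9% (35.1 to 53.0), beside 15.7% of all regions in the genome and 22.5% of regions at protein-coding loci. Regions in no WT peak numbered 25, or 21.9% (15.3 to 30.4), beside 62.7% at protein-coding loci. The Taf4 KO lists are longer than the WT list, and the part of list length in this share was not tested. With lists of equal number the share in all lists was 40.2% for the members and 31.4% for the genome. The regions of a locus are neighbours and do not count as independent.

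The motifs searched were no more than a description of the letters. Both strands were read for 6 motifs, in the 200 bases upstream of starts and in 250 bases at the centre of distal regions shared by all lists. TAATTA, a homeodomain core, was in 3.48% of 22359 promoter windows and 8.61% of 25613 distal windows. CAGATG was in 10% and 27.8%, TGCTGA in 12% and 26.5%, TGTTTAC in 2.15% and 9.48%, TGANTCA in 4.8% and 11.4%, and TGACGTCA, the cyclic AMP response element, in 1.83% and 0.5%. Of 8 windows upstream of member starts, 2 of them of Prlr and none of Ffar1, 2 held CAGATG and 2 TGCTGA, and none held the others. Of 9 windows in peaks shared by all lists, 1 of them in the Ffar1 promoter peak, 4 held TGCTGA, 2 held CAGATG, and TAATTA, the forkhead motif and the AP-1 motif were found in 1 each.

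Other genes of the same pathways were counted in the same way. Among 79 matched genes of 8 lists of receptors and signalling partners, a promoter was called for 63 in WT, for 57 at 1 week and for 70 at 5 weeks. At 1 week 10 lost and 4 gained a call, 15.9% of the 63 and 25% of the 16 without one, beside 14.5% and 13.3% of all genes. At 5 weeks 2 lost and 9 gained a call, 3.17% and 56.2%, beside 1.89% and 18.9%. The lists were chosen by name with earlier results of these data known, so nothing is read from these shares.

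By role, receptors that raise cyclic AMP were called at 5, 5 and 7 of 7 genes. Adcyap1r1, the PACAP receptor, and Crhr1, a corticotropin-releasing hormone receptor, were called at 5 weeks alone, with weak q scores of 1.72 and 2.33. Receptors that lower it were called at 10, 8 and 11 of 12, and Drd2 and Adra2b, a dopamine and an adrenergic receptor, were not called at 1 week. Calcium-mobilising receptors were called at 5, 4 and 7 of 11. There Avpr1b, a vasopressin receptor, and Ffar2 were called in WT and not at 1 week, and Cckar, a cholecystokinin receptor, was gained at 1 and 5 weeks with q scores of 2.45 and 5.31. Of 9 G protein subunits 9, 8 and 9 were called, the one absent at 1 week being Gnb1, and of 9 phospholipase C pathway genes 9, 8 and 9, the one absent being Plcb3. In the cyclic AMP pathway 14, 14 and 17 of 17 were called. Of these, Adcy5, an adenylyl cyclase, and Pde8b, a phosphodiesterase, had no call at 1 week alone. Conversely, Adcy8, a calcium-sensitive adenylyl cyclase, and Rapgef4, the cyclic AMP sensor Epac2, were called in both Taf4 KO lists but not in WT. Rapgef4 had q scores of 3.82 and 5.85.

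Partners of Prlr and Ucn3 formed the last lists. Of 9 genes of the prolactin pathway and its targets, 8, 9 and 9 were called, with Tph1, the serotonin-making enzyme that prolactin induces in islets, gained at 1 and 5 weeks with q scores of 2.63 and 3.13. Of 5 genes of the urocortin family, 3, 1 and 1 were called. Crh encodes corticotropin-releasing hormone. It had a WT promoter peak with a q score of 5.95, at the 66.0 percentile, and none in either Taf4 KO list. Its surroundings at 40.8% GC belong to the group in which 2.12% of WT calls were absent at 1 week. Ucn had a weak WT peak of 1.54 and none in either Taf4 KO list. Crhr2, the receptor of Ucn3, was called in all lists with 4.17, 2.19 and 5.87.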

How the data were processed

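Per the submitters' processing notes, reads were demultiplexed with bcl2fastq 2.17.1.14, mapped to mm9 with Bowtie 1.0.0 and called with MACS2 2.1.1. According to the study's methods, the authors kept reads with a unique place, so repeats are under-represented. Control, duplicate removal and a shift to the insertion site are not given in the sources used here. The deposited broad peak lists hold the mean over each peak of 3 values, a ratio (fold over background), −log10 p and −log10 q. The whole-number score was not used. Read totals are not in such lists; the local background was solved from fold and p, and its first percentile used as a floor, which assumes equal read extension in all libraries. The number of reads bears on which weak peaks can be called.

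Samples were grouped by genotype and time, 1 library to a group. Chromosomes 1 to 19, X and Y were kept, leaving out 2 mitochondrial peaks per list. Genes came from GENCODE on NCBIM37, the same build as mm9. Peaks were shared from 1 bp of overlap and merged across lists where they overlapped or touched. GC content was taken over 1 Mb around the gene and genes put in 5 equal groups. Shares have Wilson 95% intervals. Alternatives were a −log10 q of at least 3 or 5, lists of equal number, scaling to the WT background (Taf4 KO peaks rescored at the WT floor and kept down to the lowest WT −log10 p), promoter windows of 2500 bp upstream to 500 bp downstream, the start of the longest transcript only, flanks of 25 or 100 kb and a reciprocal overlap of 50%. RefSeq starts, placed by exact matches of 7 genes' promoter sequences, and ranks among promoter peaks were added after the data were seen.

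The rule for naming covered all 8 members, each promoter peak, the 3 strongest distal WT peaks, WT peaks without Taf4 KO overlap, the 2 strongest Taf4 KO peaks without WT overlap per list, and up to 4 genes per pathway list, those with differing calls first; the text prints part of these. Some other peaks were picked after their values were seen. The members and lists were chosen with earlier results of these data known. Galr3 and Ffar4 were not matched. Overlap queries were checked against a direct count on the WT list, and promoter calls with losses and gains planted in it. The floor was checked on simulated peaks with single values, not means over a peak. That check therefore does not cover the averaging. Python 3.11.15, numpy 2.4.6, pandas 2.3.3, scipy 1.17.1, pysam 0.24.0 and matplotlib 3.10.9 were used.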

Additional observations from a re-analysis of the deposited data

Results flagged for a closer look

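At 3 loci the number of peaks moved in opposite directions from WT at 1 and 5 weeks. With 1 library per group these differences were not tested. Ffar1, with 8 WT peaks, differed by -1 at 1 week and 2 at 5 weeks. Adra2a, with 9, differed by -3 and 1. Ucn3, with 8, differed by 1 and -1. Both comparisons share the WT library, and differences of 1 or 2 peaks rest on single calls. With a q score of at least 3, Ffar1 and Ucn3 had more peaks than WT at both times. Adra2a kept opposite directions.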

How the results depend on the processing

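No paired analysis was possible because each group has 1 library and the labels give no replicate numbers. Promoter calls of the members stayed within 1.5 times their number under every alternative tried, at 5 to 8 in WT, 5 to 7 at 1 week and 5 to 8 at 5 weeks, and so did the share of regions found in all lists, from 40.2% to 48.8%. Peak numbers moved. At a −log10 q of 3 or more the loci held 50 peaks in WT, and with 5 or more 40 in WT and 33 at 1 week. With 25 kb on each side they held 59, 39 and 54, and with 100 kb 96 at 1 week, as the shorter or longer stretch implies. The difference from WT at 1 week, -27, was -3 at 3 or more and -7 at 5 or more. At 5 weeks, -4 turned to 28 and 22 under these filters and was -13 with equal list lengths and -16 with scaling. The ratio to WT at 1 week, 0.697, was 0.596 with equal list lengths and with scaling. The cause was not tested. Of the 80 WT peaks away from the genes' own promoters, those at promoters of neighbours included, 53.8% were overlapped at 1 week and 68.8% at 5 weeks. With the filter applied to both lists, not to the WT peaks alone, the share at 1 week was 77.3% at 3 or more and 73.5% at 5 or more, and at 5 weeks 97.7% and 91.2%. A reciprocal overlap of 50% gave 36.2% at 1 week. The lists differ in background depth, and its part in the calls of weak peaks was not tested. The Chrm3 promoter call rests on the RefSeq start, chosen after the data were seen.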
